A study of Mus musculus with 9 samples.

Results

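The genes studied here encode the enzymes and regulators with which a cell makes cholesterol and fatty acids. They were the rows of the deposited expression table whose symbol was on a list of 28 genes, and all 28 were found among 30579 genes. RNA was sequenced from sorted cells labelled mesenchymal stromal cells, the fibroblast-like support cells of bone marrow, taken from mouse long bones. The study had 3 groups of 3 libraries: young controls (age 3 months), aged controls (age 18 months) and mice labelled aged Thbs1 knockout (age 18 months). All mice had been injected with an antibody to the endothelial protein VE-cadherin 10 minutes before death. The sources used here do not give the strain, the genotype of the controls, the kind of knockout allele, the gates of the sort or whether each library came from its own mouse, so the tests measure only the spread between these libraries.

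Cholesterol is built from acetyl-CoA. The mevalonate enzymes make activated isoprene units and farnesyl pyrophosphate. Squalene synthase and the enzymes after it close the sterol rings and trim them to cholesterol. Fatty acid synthesis starts from the same acetyl-CoA, which ATP citrate lyase and acetyl-CoA synthetase supply. Acetyl-CoA carboxylase, fatty acid synthase, an elongase and the stearoyl-CoA desaturases then make palmitate, stearate and oleate. The transcription factors SREBP1 and SREBP2, encoded by Srebf1 and Srebf2, switch on most of these genes. They are held in the endoplasmic reticulum by Insig proteins while sterols are plentiful, and they act on promoters together with the factors NF-Y and Sp1. Marrow stromal cells share an origin with marrow adipocytes, in which lipid synthesis is prominent.

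Values were FPKM, fragments per kilobase of transcript scaled to the fragments mapped in a library. The libraries held an estimated 17.7 to 27.6 M reads (M, mega), and 13503 to 18382 genes were above 0 in a library. Stromal identity markers, 8 genes such as Cxcl12 and Lepr, summed to 6739 to 7224 FPKM in young controls, 3555 to 5238 in aged controls and 5259 to 7363 in the libraries labelled knockout. All 8 had negative fold changes with age (median log2 difference −0.72, beside −0.28 for all tested genes) and none passed. Of all tested genes, 25.5% had a fold change above 0 with age. Osteoblast markers summed to 5743 to 7789, 1024 to 1884 and 1770 to 8334 FPKM in the same order of groups. By the limma test described below, 4 of 8 fell with age (against 1.47% of all tested genes). In the libraries labelled knockout against aged controls 4 of 8 rose (against 1.52%). Cartilage markers summed to 143 to 359, 41.6 to 63.3 and 136 to 3246 FPKM, and 5 of 8 rose in the latter comparison (against 1.52%). Their part in the results on the members was not tested. In addition, the endothelial marker Cdh5 was at 0.01 to 0.11 FPKM in 8 of 9 libraries and at 1.99 FPKM in replicate 2 of the libraries labelled knockout. Of the other endothelial markers in that library, Kdr, Tek, Tie1 and Cldn5 were at 0, Emcn at 0.02 and Pecam1 at 0.42 FPKM. Of the libraries labelled aged Thbs1 knockout, replicate 2 stood apart, since its correlations with the other libraries were 0.866 to 0.904. This library held the lowest value of 13 and the highest value of 6 of the 28 genes. Immunoglobulin genes took 0.00383% to 0.170% of fragments in young controls, 4.27% to 31.9% in aged controls, and 0.162%, 19.2% and 2.36% in replicates 1 to 3 of the libraries labelled knockout. Thbs1, which encodes thrombospondin-1, was at 35.56, 41.89 and 36.85 FPKM in aged controls and at 24.28, 44.55 and 37.05 FPKM in the libraries labelled knockout, a log2 difference of −0.15 (SE 0.26, limma adjusted p = 0.801). The RNA therefore does not check the knockout label, and these are called the labelled-knockout libraries throughout. In such bulk samples, fewer cells of a type and less RNA per cell cannot be told apart.

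The promoters show what the members share beyond their function. RefSeq promoter entries of build GRCm38.p6 were found for 22 of the 28 genes, and the 250 bases before each start were searched on both strands. The NF-Y box CCAAT, read as ATTGG on the other strand, was present in 19 of 22 members (86.4%), against 40.03% of 9184 tested genes with an entry and 33.8% of all 32851 promoter entries. Acly, Acaca and Elovl6 were the 3 members without it in this window. RefSeq starts can lie inside the gene as GENCODE annotates it. For Idi1, Cyp51, Tm7sf2, Msmo1, Dhcr7 and Acss2 every box lay inside that annotated gene, although before a RefSeq start. The exact form TCACCCCAC of the sterol response element, at which SREBPs can bind, was found in Hmgcs1 alone among the members (4.55%), against 0.610% of tested genes. The looser form TCACNCCAC added no other member and was held by 1.17% of tested genes. Forms further from these letters were not searched, so the other members are not shown to lack an SREBP site. The GC box GGGCGG, a site of Sp1, stood in 18 of 22 members (81.8%), against 64.7% of tested genes. The E-box CACGTG stood in Hsd17b7, Sc5d, Dhcr7 and Insig1 (18.2%), against 10.1% of tested genes. A gene with several entries was counted once if any entry held the motif, and the tested genes and members were counted in the same way. A letter match is a description and not evidence of binding.

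Of 37 NF-Y boxes in the member promoters, 29 lay within 150 bases of the start, with a median distance of 62 bases. Sequences of 4 members are shown 5′ to 3′ on the gene's own strand because they carry the sterol response element, the most NF-Y boxes, or the boxes of a fatty acid enzyme and of the regulator itself. Capitals mark NF-Y boxes on either strand and, in Hmgcs1 only, also the sterol response element. The Hmgcs1 sequence is chr13:119690101-119690350 on the forward strand, the Mvk sequence chr5:114444019-114444268 on the forward strand, the Fasn sequence chr11:120824548-120824797 on the reverse strand, and the Srebf2 sequence chr15:82147019-82147180 on the forward strand, where it stops at the annotated 5′ end of the gene.
Hmgcs1: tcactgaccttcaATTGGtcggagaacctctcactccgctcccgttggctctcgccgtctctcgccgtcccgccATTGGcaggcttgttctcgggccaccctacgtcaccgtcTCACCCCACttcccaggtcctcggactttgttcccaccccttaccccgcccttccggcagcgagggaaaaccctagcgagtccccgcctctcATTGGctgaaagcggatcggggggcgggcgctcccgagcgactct
Mvk: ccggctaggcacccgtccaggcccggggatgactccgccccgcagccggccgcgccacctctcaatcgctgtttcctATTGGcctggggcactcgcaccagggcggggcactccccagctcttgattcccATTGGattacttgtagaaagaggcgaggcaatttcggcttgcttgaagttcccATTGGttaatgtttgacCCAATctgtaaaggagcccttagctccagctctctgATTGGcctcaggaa
Fasn: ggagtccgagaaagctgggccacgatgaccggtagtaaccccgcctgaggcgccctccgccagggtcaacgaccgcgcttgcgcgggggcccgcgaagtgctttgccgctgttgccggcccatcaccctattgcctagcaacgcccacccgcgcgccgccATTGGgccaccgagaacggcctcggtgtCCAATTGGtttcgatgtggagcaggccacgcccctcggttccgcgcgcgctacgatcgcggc
Srebf2: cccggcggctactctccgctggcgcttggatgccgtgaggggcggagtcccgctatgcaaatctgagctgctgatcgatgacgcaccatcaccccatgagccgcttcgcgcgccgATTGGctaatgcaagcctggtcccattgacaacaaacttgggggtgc
In Hmgcs1 the sterol response element lay 137 bases before the start, between NF-Y boxes at 176 and 45 bases, with another at 237 bases. Mvk held 5 NF-Y boxes, at 173, 120, 67, 50 and 14 bases. Fasn held 3, at 90, 62 and 59 bases, of which the last pair overlap. The Srebf2 promoter held 1, at 135 bases before the RefSeq start, which lies past the end of the sequence shown.

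**Figure D1:**
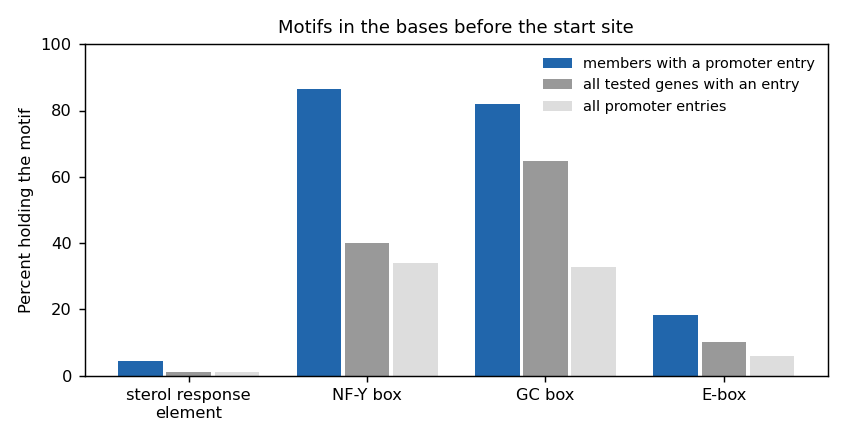
Percent of promoters that hold each motif within 250 bases before the start (vertical axis), for the 22 members with a RefSeq entry, the 9184 tested genes with an entry and all 32851 entries; the sterol response element is the form with one free base. The NF-Y box stood in 86.4% of members and 40.03% of tested genes, and the sterol response element in 4.55% and 1.17%.

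Levels spanned a wide range among the 28 genes. FPKM divides by a length per gene, but the length that was used is not given, so the ranking of genes is uncertain. Ebp, the sterol isomerase, had the highest mean over the 9 libraries at 23.0 FPKM, which lay at percentile 90.6 of all genes above 0. It was followed by Acly at 16.9, Sc5d at 16.4, Scd1 at 16.3, Scd2 at 15.6, Srebf2 at 15.6, Insig1 at 14.4 and Hmgcs1 at 11.3 FPKM. The lowest were Fdps at 0.307, Lss at 0.856 and Acaca at 0.930 FPKM, although each encodes an enzyme that the pathway needs. All annotated exons of these 3 genes span 4208, 10787 and 17074 bases, against 1382, 4667 and 9513 in the longest protein-coding transcript. Division by the former would give lower values than division by the latter. Of the Fdps transcript, 91.4% matched 6 other annotated genes at 95% identity or more, and of the Acaca transcript 64.3% matched the processed pseudogene Gm5182. The share was 54.7% for Fdft1, 33.3% for Idi1, 16.2% for Hmgcs1 (antisense gene Gm48342), 15.2% for Elovl6, 11.4% for Scd2, whose match was Scd1, and 10.6% for Acss2, whose longest match was Ggt7. The sources used here do not say how reads with several matching places were counted, so the levels of these genes are uncertain.

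**Figure D2:**
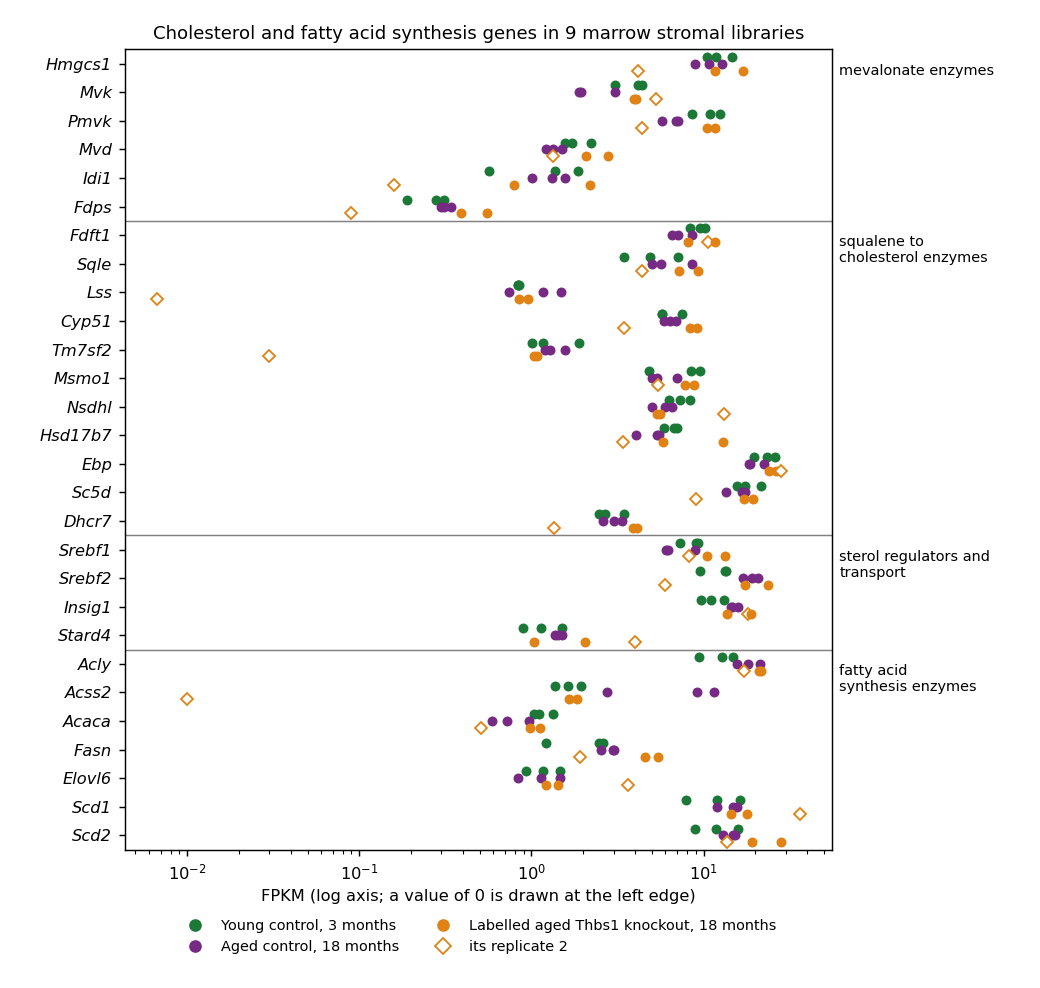
FPKM of each of the 28 genes (log axis, a value of 0 at the left edge) in the 9 libraries, coloured by group and ordered by role, with open diamonds for replicate 2 of the labelled-knockout libraries. By the mean over the 9 libraries Ebp is highest and Fdps lowest, while the highest single value is Scd1 at 36.26 FPKM in labelled-knockout replicate 2, and the diamond lies far to the left for Lss, Tm7sf2 and Acss2.

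The summed FPKM of each role gives the size of each branch per library. The 6 mevalonate enzymes summed to 24.4, 33.5 and 32.5 FPKM in young controls, 19.1, 25.8 and 23.1 in aged controls, and 30.6, 15.4 and 36.8 in the labelled-knockout libraries. The 11 enzymes from squalene to cholesterol summed to 88.5 ± 12.5 FPKM in young controls, 78.1 ± 3.6 in aged controls and 92.6 ± 12.9 in labelled-knockout libraries (SD, n = 3 each). Both sets of sterol enzymes overlapped between all 3 groups. The 4 regulators summed to 29.4 to 36.8 FPKM in young and 40.2 to 45.8 in aged controls, with no overlap, and to 51.6, 36.3 and 48.8 in labelled-knockout libraries, of which replicate 2 lay within the young range. The 7 fatty acid enzymes summed to 41.03, 51.3 and 35.6 FPKM in young controls, 57.1, 67.4 and 53.8 in aged controls, and 64.4, 73.1 and 75.9 in labelled-knockout libraries. All 6 libraries of aged mice, whatever their label, thus lay above the 3 young controls in this sum. Acss2 gave 1.64, 1.94 and 1.37 FPKM of the young sums and 9.15, 11.49 and 2.75 of the aged control sums. Without Acss2 the sums of aged and young controls overlapped. Scd1 gave 36.26 FPKM of the 73.1 in labelled-knockout replicate 2. These sums are descriptions without a test.

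**Figure D3:**
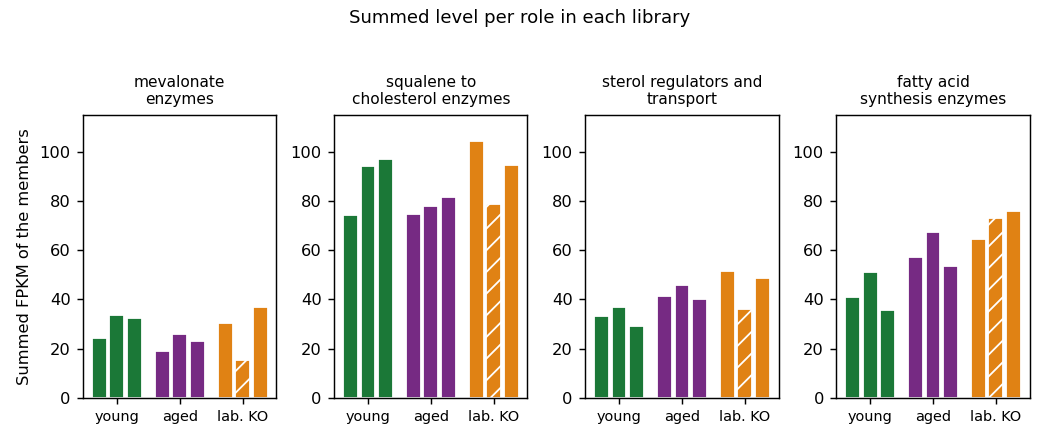
Summed FPKM of the members of each role (vertical axis, from 0) in every library, 3 bars a group, with replicate 2 of the labelled-knockout libraries hatched. The fatty acid sum is 35.6 to 51.3 FPKM in young controls and 53.8 to 75.9 FPKM in the other 6 libraries, and the mevalonate sum is lowest in the hatched library.

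Aged and young controls were compared first, which asks how these genes differ with age in control marrow stroma. Of the 28 genes, 26 reached the filter of at least 1 FPKM in at least 3 libraries and were tested among 11988 genes with limma on log2(FPKM + 1), and Fdps and Lss did not. None of the 26 passed an adjusted p of 0.05, against 2.57% of all tested genes called higher and 1.47% called lower. At an unadjusted p under 0.05, Acss2 and Acly were higher (2 of 26, against 5.96% of all genes) and Mvk was lower (1 of 26, against 15.7%). All aged libraries lay above all young libraries for Srebf2, Insig1, Acly and Acss2 (4 of 26, against 7.02% of all genes). All lay below for Mvk, Pmvk, Mvd, Hsd17b7 and Acaca (5 of 26, against 37.4%). The fold change was above 0 for 13 of 26 members and for 25.5% of all genes, and the median log2 difference was −0.01 for the members and −0.28 for all genes. The all-gene median moved to −0.01 and the members' median to 0.18 when libraries were rescaled by median ratios, so each difference here stands beside that shift of all genes. By role, the medians were −0.27 for the mevalonate enzymes, −0.19 for squalene to cholesterol, 0.28 for the regulators and 0.26 for fatty acid synthesis. The 95% interval of the difference lay within 1 log2 unit either side of 0 for 16 of 26 members, and the SE ran from 0.20 to 0.51.

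The comparison of labelled-knockout with aged control libraries asks what differs at 18 months in mice labelled as lacking Thbs1. It shares the aged controls with the comparison above, so an aged control value that is high or low enters both with opposite sign. No member passed, against 1.52% of all tested genes called higher and 1.96% called lower. At an unadjusted p under 0.05, Mvk was higher (1 of 26, against 12.5%) and Acss2 was lower (1 of 26, against 7.3%). Libraries did not overlap for Mvk and Ebp, which were higher (2 of 26, against 16.6%), and for Tm7sf2 and Acss2, which were lower (2 of 26, against 6.54%). The fold change was above 0 for 19 of 26 members and for 55.7% of all genes, with medians of 0.28 and 0.07. The role medians were 0.28, 0.18, 0.26 and 0.29 in the order above. The interval lay within 1 log2 unit of 0 for 11 of 26 members.

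Labelled-knockout libraries were also compared with young controls, which the aged comparison shares as well. None of the 26 passed, against 0.00834% of all genes higher and 0.0167% lower. Acly, Insig1 and Scd2 were higher at an unadjusted p under 0.05 (3 of 26, against 2.11%), and none was lower at that level (against 6.52%). Insig1 and Acly did not overlap (2 of 26 higher, against 4.08%), and no member lay wholly below the young controls (against 13.4%). The fold change was above 0 for 17 of 26 members and 34.1% of all genes, with medians of 0.09 and −0.16.

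**Figure D4:**
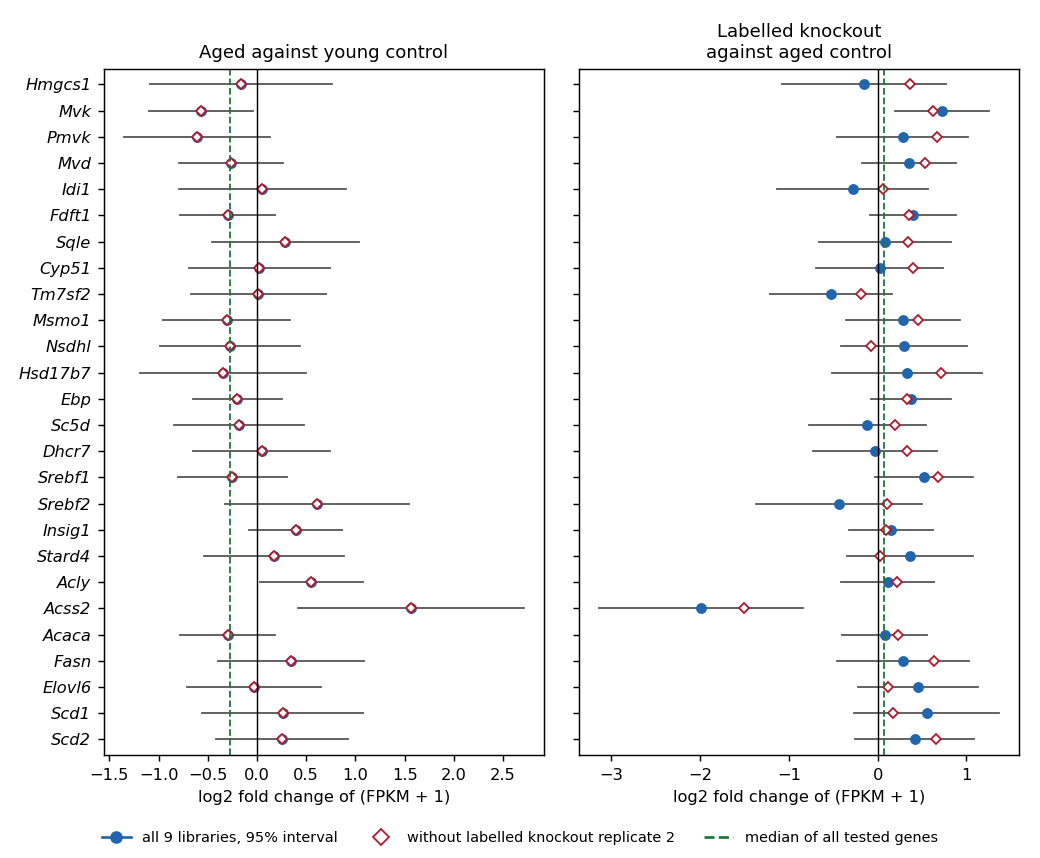
Log2 differences of (FPKM + 1) for the 26 tested members with 95% intervals (filled points and bars, all 9 libraries) and the values without replicate 2 of the labelled-knockout libraries (open diamonds), in aged against young controls and in labelled-knockout against aged controls; the dashed line is the median of all tested genes, −0.28 and 0.07. Acss2 lies farthest to the right in the first panel, at 1.56, and farthest to the left in the second, at −1.99.

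Among the mevalonate enzymes, Mvk and Pmvk were lower in aged than in young controls without overlap, but neither passed. Mevalonate kinase is encoded by Mvk (ENSMUSG00000041939.14, chromosome 5, 114444269 to 114460591, GRCm38). It stood at 3.05, 4.17 and 4.39 FPKM in young controls, 1.89, 3.04 and 1.94 in aged controls and 4.05, 5.30 and 3.93 in labelled-knockout libraries. The highest aged control lay just under the lowest young control, while every labelled-knockout library lay above every aged control. The log2 difference was −0.57 with age (SE 0.23, adjusted p = 0.200) and 0.73 in labelled-knockout against aged controls (SE 0.23, adjusted p = 0.133). Its 5 NF-Y boxes are shown above.

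The next kinase of the pathway is encoded by Pmvk (ENSMUSG00000027952.16, chromosome 3, 89454541 to 89469013). It stood at 8.55, 10.85 and 12.52 FPKM in young controls, 5.74, 6.93 and 7.06 in aged controls and 11.61, 4.36 and 10.45 in labelled-knockout libraries. Replicate 2 of the last group was below every aged control and the other 2 were above. The log2 difference was −0.61 with age (SE 0.33, adjusted p = 0.318) and 0.28 in labelled-knockout against aged controls (SE 0.33, adjusted p = 0.683). Without that replicate the first passed (adjusted p = 0.0381), and the second became 0.67 and passed (adjusted p = 0.0488).

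Mvd, the decarboxylase after these kinases, averaged 1.84 ± 0.348, 1.35 ± 0.140 and 2.06 ± 0.725 FPKM in young controls, aged controls and labelled-knockout libraries (SD, n = 3 each, the order used below). Hmgcs1, HMG-CoA synthase at the head of the branch and the member whose promoter holds the searched form of the sterol response element, averaged 12.3 ± 2.08, 10.8 ± 1.98 and 10.9 ± 6.42 FPKM. Its labelled-knockout libraries were at 11.65, 4.16 and 16.93 FPKM and spanned both other groups. Idi1, which isomerises isopentenyl pyrophosphate, averaged 1.27 ± 0.651, 1.29 ± 0.275 and 1.05 ± 1.04 FPKM. Fdps, farnesyl pyrophosphate synthase, stayed under the filter, at 0.19 to 0.31, 0.30 to 0.34 and 0.09 to 0.55 FPKM. The groups overlapped for Hmgcs1, Idi1 and Fdps.

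The enzymes from squalene to cholesterol showed the smallest differences of the 4 roles in aged against young controls, from −0.35 for Hsd17b7 to 0.29 for Sqle on the log2 scale. Ebp (ENSMUSG00000031168.14, chromosome X, 8185329 to 8193512) stood at 19.53, 23.41 and 26.11 FPKM in young controls, 22.45, 18.68 and 18.48 in aged controls and 26.18, 27.99 and 24.04 in labelled-knockout libraries. The last group lay wholly above aged controls and overlapped young controls, and its log2 difference from aged controls was 0.38 (SE 0.20, adjusted p = 0.331). Squalene synthase, Fdft1, stood at 8.31, 10.13 and 9.58 FPKM in young controls, 6.58, 8.62 and 7.09 in aged controls and 8.16, 10.68 and 11.60 in labelled-knockout libraries. These groups overlapped, with a log2 difference of 0.40 between labelled-knockout libraries and aged controls (SE 0.21, adjusted p = 0.337). Exons of Ctsb on the opposite strand cover 18.3% of its exon bases, and whether strand was counted is not given.

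Tm7sf2, a sterol reductase, stood at 1.01, 1.89 and 1.16 FPKM in young controls, 1.28, 1.20 and 1.57 in aged controls and 1.08, 0.03 and 1.03 in labelled-knockout libraries. The low value rested on an estimated 2 reads, and without that library the log2 difference from aged controls was −0.19 in place of −0.52. Lss, which closes the sterol rings, was listed at 0 in the same library and at 0.85 and 0.95 FPKM in the other labelled-knockout libraries. A count of 0 there allows up to 0.0154 FPKM at 3 reads. Lss was at 0.83, 0.85 and 0.83 FPKM in young and 1.16, 1.49 and 0.74 in aged controls.

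The other 7 enzymes of this branch overlapped between labelled-knockout libraries and aged controls. Sqle, the squalene epoxidase, averaged 5.12 ± 1.82, 6.42 ± 1.92 and 6.97 ± 2.5 FPKM. The demethylases Cyp51 and Msmo1 averaged 6.31 ± 0.996, 6.40 ± 0.531 and 7.0 ± 3.11 FPKM, and 7.61 ± 2.44, 5.80 ± 1.07 and 7.35 ± 1.72 FPKM. Nsdhl and Hsd17b7 complete the demethylation. Nsdhl averaged 7.29 ± 1.02, 5.87 ± 0.787 and 8.0 ± 4.38 FPKM, with its highest value, 13.06, in replicate 2 of the labelled-knockout libraries. Hsd17b7 averaged 6.55 ± 0.597, 4.97 ± 0.780 and 7.38 ± 4.94 FPKM, with 12.91 in replicate 1 and 3.39 in replicate 2 of that group. Sc5d and Dhcr7, which set the last double bonds of the sterol, averaged 18.2 ± 3.06, 15.9 ± 2.12 and 15.2 ± 5.50 FPKM, and 2.87 ± 0.499, 2.98 ± 0.376 and 3.12 ± 1.53 FPKM.

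Among the regulators, Srebf2 and Insig1 were higher in every aged control than in every young control, and Srebf1 was not. Srebf2 (ENSMUSG00000022463.8, chromosome 15, 82147181 to 82205379) stood at 13.37, 13.45 and 9.54 FPKM in young controls, 19.02, 20.85 and 16.90 in aged controls and 23.55, 5.99 and 17.48 in labelled-knockout libraries. The last group held both the highest and the lowest value of the gene. The log2 difference with age was 0.61 (SE 0.42, adjusted p = 0.423), and it passed without replicate 2 of the labelled-knockout libraries (adjusted p = 0.0491), which enters the shared estimate of spread. Against aged controls the labelled-knockout libraries differed by −0.43 (SE 0.42, adjusted p = 0.608) and, without that replicate, by 0.10. Srebf2 ranked after the 5 members with the smallest p with age and is given in full because its groups did not overlap, a choice made after its values were seen.

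Insig1 (ENSMUSG00000045294.11, chromosome 5, 28071363 to 28078662) stood at 9.62, 13.20 and 11.01 FPKM in young controls, 14.65, 14.49 and 15.88 in aged controls and 13.77, 18.05 and 18.85 in labelled-knockout libraries. All 6 libraries of aged mice lay above the 3 young ones. The log2 difference was 0.39 with age (SE 0.21, adjusted p = 0.316) and 0.54 in labelled-knockout against young controls (SE 0.21, adjusted p = 0.539).

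Srebf1 stood at 9.27, 9.02 and 7.30 FPKM in young controls, 6.24, 8.97 and 6.02 in aged controls and 13.25, 8.21 and 10.43 in labelled-knockout libraries. Each group overlapped the next. The log2 difference was −0.25 with age (SE 0.24, adjusted p = 0.587) and 0.52 in labelled-knockout against aged controls (SE 0.24, adjusted p = 0.275). Stard4, a carrier of cholesterol within the cell, averaged 1.18 ± 0.307, 1.43 ± 0.0651 and 2.36 ± 1.52 FPKM, with its highest value, 4.01, in replicate 2 of the labelled-knockout libraries.

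The fatty acid enzymes that supply acetyl-CoA, Acly and Acss2, were higher in every aged control than in every young control. Acly, ATP citrate lyase (ENSMUSG00000020917.17, chromosome 11, 100476353 to 100528000), stood at 14.90, 12.72 and 9.37 FPKM in young controls, 18.23, 21.18 and 15.65 in aged controls and 20.95, 17.20 and 21.62 in labelled-knockout libraries. All 6 libraries of aged mice lay above the young ones, and the 2 aged groups overlapped. The log2 difference was 0.55 with age (SE 0.23, 95% interval 0.03 to 1.07, adjusted p = 0.210) and 0.67 in labelled-knockout against young controls (SE 0.23, adjusted p = 0.490). The difference with age was 0.87 and passed under median-ratio rescaling (adjusted p = 0.0439). It was 0.86 and passed once immunoglobulin genes were left out and the libraries rescaled (adjusted p = 0.0470).

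Acss2, the cytosolic acetyl-CoA synthetase, which makes acetyl-CoA from acetate, had the largest differences of any member in both comparisons with aged controls. The gene (ENSMUSG00000027605.18) lies on chromosome 2, 155517948 to 155585724. It stood at 1.64, 1.94 and 1.37 FPKM in young controls, 9.15, 11.49 and 2.75 in aged controls and 1.84, 0.01 and 1.66 in labelled-knockout libraries. Every aged control was above every other library, but replicate 3 was far below the other 2, and the 0.01 rested on an estimated 2 reads. The log2 difference was 1.56 with age (SE 0.51, 95% interval 0.42 to 2.71, adjusted p = 0.120) and −1.99 in labelled-knockout against aged controls (SE 0.51, 95% interval −3.13 to −0.84, adjusted p = 0.0713). Without replicate 2 of the labelled-knockout libraries both passed, at 1.56 (adjusted p = 0.0253) and −1.51 (adjusted p = 0.0483). Both also passed without aged control replicate 3, at 2.09 (adjusted p = 0.0359) and −2.52 (adjusted p = 0.0147). Labelled-knockout and young control libraries differed by −0.42 (SE 0.51, adjusted p = 0.779) and, without that replicate 2, by 0.06.

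Blood cell markers also differed between the groups, and only some of them ordered the aged controls as Acss2 did. Of 10 tested pan-leukocyte markers, 9 rose with age (against 2.57% of all tested genes) and 7 fell in labelled-knockout against aged controls (against 1.96%). However, 6 of the 10 reached the filter only through aged controls. None of the 11 was listed at 0 in all libraries of a group. Their summed level was 6.08 to 17.0 FPKM in young controls, 1165, 1008 and 555 in aged controls, and 5.31, 613 and 98.2 FPKM in replicates 1 to 3 of the labelled-knockout libraries. Cd52 made up much of these sums, at 442.85, 112.58 and 417.27 FPKM in aged controls and 544.91 in labelled-knockout replicate 2. Without it the other 10 summed to 5.05 to 10.5 FPKM in young controls, 722, 895 and 138 in aged controls, and 3.41, 67.6 and 21.7 in the labelled-knockout libraries. The order of aged controls in Acss2, replicate 2, then 1, then 3, was that of 10 of the 11 pan-leukocyte markers, such as Lcp1 at 83.91, 116.91 and 10.59 FPKM, and Cd52 was the exception. The members Srebf2 and Acly also had it. So did the immediate early genes Jun, at 1243, 1572 and 793 FPKM, and Zfp36, at 1580, 2440 and 776. Fos, at 2258, 3107 and 2423 FPKM, did not. The immunoglobulin share of fragments in aged controls, 21.6%, 4.27% and 31.9%, ran in the opposite order. How many of all genes had the order of Acss2 was not counted, so it is a description only. None of 10 B and plasma cell markers and none of 8 neutrophil markers had that order, and replicate 2 was the lowest aged control for 9 and 8 of them. Igkc, for example, was at 173227, 32970 and 210878 FPKM and S100a9 at 84.96, 7.97 and 69.44. The vascular and leukocyte marker Pecam1 was at 9.34, 11.58 and 2.07 FPKM, while Cdh5 was at 0.01 to 0.03. These genes were picked after their values were seen, and their part in the Acss2 result was not tested.

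**Figure D5:**
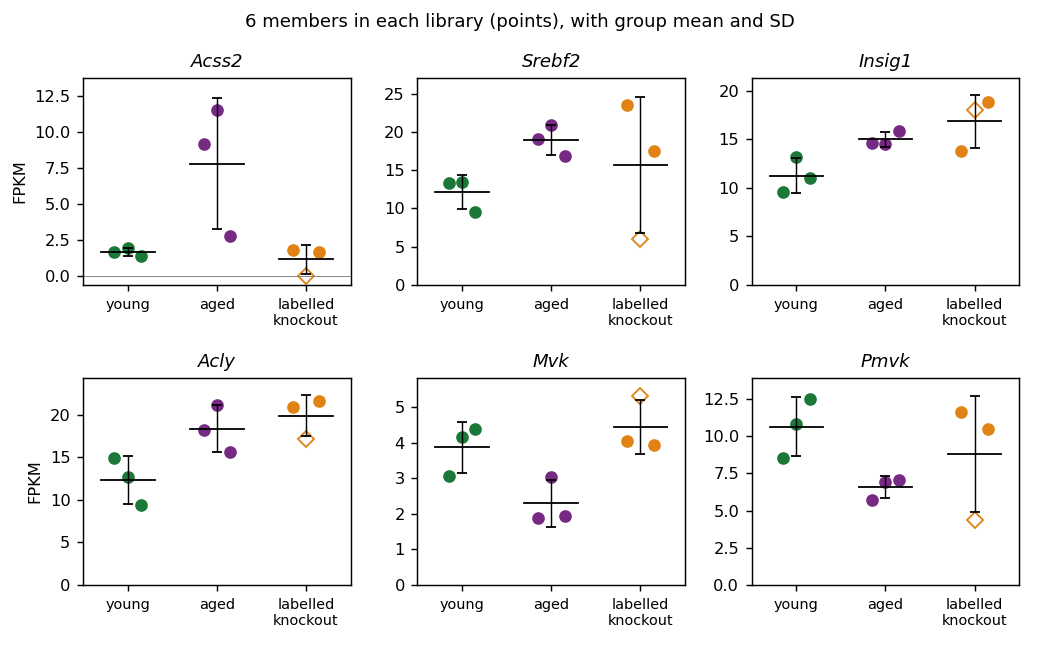
FPKM (vertical axis) of Acss2, Srebf2, Insig1, Acly, Mvk and Pmvk in every library, with bars for the group mean and whiskers for the SD (n = 3); the open diamond is replicate 2 of the labelled-knockout libraries. The 3 aged controls lie above the 3 young controls for Acss2, Srebf2, Insig1 and Acly and below them for Mvk and Pmvk.

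The enzymes that build and desaturate the chain were less separated. Acaca, acetyl-CoA carboxylase, averaged 1.16 ± 0.151, 0.760 ± 0.193 and 0.870 ± 0.320 FPKM. Aged controls, at 0.59 to 0.97 FPKM, lay below young controls, at 1.04 to 1.33, with a log2 difference of −0.30 (SE 0.21, adjusted p = 0.450). It was the only member that would have missed the filter without 1 of the groups, here the young controls. Fasn, fatty acid synthase, stood at 2.47, 2.62 and 1.22 FPKM in young controls, 3.02, 2.55 and 2.99 in aged controls and 5.44, 1.91 and 4.56 in labelled-knockout libraries. Replicates 1 and 3 of the last group were the highest of all 9 libraries, and the log2 difference from young controls was 0.63 (SE 0.33, adjusted p = 0.616). Elovl6, which elongates palmitate, averaged 1.19 ± 0.271, 1.15 ± 0.310 and 2.09 ± 1.33 FPKM, with 3.62 in replicate 2 of the labelled-knockout libraries.

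The desaturases Scd1 and Scd2 introduce the double bond of oleate, and both lie on chromosome 19. Scd1 stood at 7.94, 16.19 and 11.91 FPKM in young controls, 11.96, 14.84 and 15.59 in aged controls and 14.37, 36.26 and 17.76 in labelled-knockout libraries. Its highest value was in replicate 2, and the log2 difference from young controls was 0.81 (SE 0.36, adjusted p = 0.582), or 0.43 without that library. Scd2 stood at 11.80, 15.81 and 8.93 FPKM in young controls, 13.02, 14.87 and 15.22 in aged controls and 19.21, 13.59 and 28.08 in labelled-knockout libraries. Here replicate 2 was the lowest of its group, and the log2 difference from young controls was 0.67 (SE 0.30, adjusted p = 0.578), or 0.91 without it. Without replicate 2 neither gene passed (adjusted p = 0.572 for Scd1 and 0.201 for Scd2).

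Leaving out replicate 2 of the labelled-knockout libraries altered the counts above for all genes as well as for members. In aged against young controls, Acss2 and Srebf2 then passed as higher and Pmvk as lower, against 5.31% and 17.6% of all tested genes. In labelled-knockout against aged controls, Pmvk passed as higher and Acss2 as lower, against 11.5% and 4.48%. The fold change was then above 0 for 23 of 26 members, with a median of 0.33, beside 0.24 for all genes. No member passed in labelled-knockout against young controls, where 0.259% and 0.0751% of all genes did. Under median-ratio rescaling, Acly passed as higher with age (against 2.88% of all genes) and Acss2 as lower in labelled-knockout against aged controls (against 2.82%). Acly also passed as higher with age with immunoglobulin genes left out (against 2.85%). Acss2 did so under quantile normalization (against 2.92%), with only the 2 groups compared (against 4.59%) and without aged control replicate 3 (against 3.84%). In labelled-knockout against aged controls it was lower under quantile normalization (against 2.53%), with immunoglobulin genes left out (against 3.06%) and without aged control replicate 3 (against 3.75%). With rescaling and labelled-knockout replicate 2 left out together, 4 members were higher with age (against 6.69%) and Acss2 was lower in labelled-knockout against aged controls (against 6.47%). Array weights, which weigh each library by its spread and gave convergence warnings, called 3 members higher and 9 lower with age (against 13.5% and 48.4%). They called 12 higher and 1 lower in labelled-knockout against aged controls (against 39.2% and 13.7%) and 5 higher against young controls (against 5.21%).

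Other genes of lipid metabolism were taken from 8 lists, whose choice, like that of the members, followed earlier work on these libraries. In aged against young controls, Abcg1 and Nceh1 passed as higher, 2 of 78 tested genes (2.56%, against 2.57% of all tested genes), and none passed as lower. Both reached the filter only through aged controls, the group in which they were high, so neither their calls nor their count supports anything about these lists. Abcg1, a cholesterol exporter and target of the sterol-sensing receptor LXR, stood at 0.24, 0.50 and 0.63 FPKM in young controls, 4.03, 4.53 and 1.31 in aged controls and 0.67, 1.45 and 0.73 in labelled-knockout libraries. It rose by 1.47 on the log2 scale with age (SE 0.35, adjusted p = 0.04997). Nceh1, which hydrolyses cholesteryl esters, stood at 0.43, 0.17 and 0.02 FPKM in young controls, 3.79, 3.93 and 1.35 in aged controls and 0.04, 0.08 and 0.39 in labelled-knockout libraries. It rose by 1.67 with age (SE 0.32, adjusted p = 0.0265) and fell by 1.72 in labelled-knockout against aged controls (SE 0.32, adjusted p = 0.0276), the only 1 of the 78 that passed there (1.28%, against 1.96% of all genes). With 1 library left out in turn, Abcg1 passed in 2 of 9 fits, those without aged control replicate 3 or labelled-knockout replicate 2 (adjusted p from 0.00483 to 0.237 over the 9). Nceh1 passed with age in 4 of 9, those without aged control replicate 3 or any 1 labelled-knockout library (0.00244 to 0.158). In labelled-knockout against aged controls it passed in 2 of 9, without the same libraries as for Abcg1 (0.00229 to 0.151). For both genes, as for Acss2 and Lcp1, the order within aged controls was replicate 2, then 1, then 3, whose share over all genes was not counted.

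None of the 9 tested genes of SREBP processing, such as Scap and the site proteases Mbtps1 and Mbtps2, passed with age (median −0.35, beside −0.28 for all genes) or in labelled-knockout against aged controls (median 0.28, beside 0.07). All 9 had negative fold changes with age, where 25.5% of all tested genes were above 0. The medians with age were −0.22 for 8 genes of sterol export and LXR targets, −0.16 for 11 of sterol uptake, trafficking and storage, 0.02 for 12 of elongation and desaturation and −0.18 for 9 of citrate and NADPH supply. They were −0.37 for 10 genes of the isoprenoid branch, 0.11 for 8 of triglyceride synthesis and −0.43 for 11 of fatty acid oxidation. Adipocyte markers, which marrow stroma shares, summed to 2256 to 3368 FPKM in young controls, 918 to 1225 in aged controls and 1604 to 2073 in labelled-knockout libraries, and 3 of 6 tested fell with age (against 1.47% of all tested genes). The lower adipocyte sum in aged controls stood beside a higher fatty acid enzyme sum, which overlapped between aged and young controls without Acss2. The link between the 2 sums was not tested. In labelled-knockout against young controls no gene of the 8 lists passed.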

How the data were processed

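Libraries of sorted marrow stromal cells started from 2 ng of RNA and used SMART-Seq v4, per the labels' protocols. The deposited table holds FPKM per gene for 9 libraries. Tools named in the submitters' processing notes are STAR, edgeR and FastQC 0.11.5, and the build is GRCm38 (mm10), with no role given for any tool. The sources used here do not give the annotation, the counter, or the treatment of strand and of reads with several matches. Because FPKM divides by a library's total, abundant immunoglobulin RNA lowers all other values.

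The genotype label gave each sample's group, and table columns were matched by title. Members and gene lists were chosen with earlier results of these data known. Depth was estimated from the smallest step between low FPKM values times gene length (GENCODE M21), where 98.8% to 100% of values were whole reads within 0.1, although a finer step would also give whole reads. Read numbers per gene are estimates on that scale, and floors of 3 reads cover counting error only.

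The tests were made with limma 3.58.1 (R 4.3.3) after adding a pseudocount of 1 to each FPKM and taking log2, and used an intensity trend. They covered 11988 genes with at least 1 FPKM in 3 or more libraries. A single fit of group means to all 9 libraries left 6 residual degrees of freedom, and p-values were adjusted by Benjamini-Hochberg over all tested genes, with a threshold of 0.05. The scale understates changes of low genes. The procedure was tested on simulated data. Values are means ± SD (n = 3). For Thbs1, an exact permutation test (two-sided) of labelled-knockout against aged controls gave p = 0.9, where 3 against 3 cannot go below 0.1.

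The rule for named genes gave in full every member that passed or was among the 5 smallest p-values of a comparison, and each passing gene of the other lists, up to 4. Tm7sf2, Srebf2, Lcp1, Cd52, Igkc, S100a9, Pecam1, Cdh5, Dgat1, Kdr, Emcn, Tek, Tie1, Cldn5, Jun, Zfp36 and Fos were added after their values were seen. Promoters and motifs came from RefSeq (GRCm38.p6), and near-identical copies were found by alignment of member transcripts at 95% identity over at least 100 bases. Alternatives, 20 per comparison, covered pseudocount, filters, scaling, trend, weights, groups in the fit, the replicate block and each library left out. Python 3.11.15 with pandas 2.3.3, scipy 1.17.1 and matplotlib 3.10.9 was used.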

Additional observations from a re-analysis of the deposited data

How the results depend on the processing

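No member passed in the analysis of all 9 libraries, and any member passed in 8, 7 and 1 of 20 alternatives for aged against young controls, labelled-knockout against aged controls, and labelled-knockout against young controls. In aged against young controls, 1 member passed as higher under median-ratio rescaling, under quantile normalization, with immunoglobulin genes left out and with only the 2 groups compared, where 2.88%, 2.92%, 2.85% and 4.59% of all genes did. With median-ratio rescaling and labelled-knockout replicate 2 left out, 4 passed as higher (Acly, Acss2, Insig1 and Srebf2), against 6.69% of all genes. Array weights called 3 higher and 9 lower, against 13.5% and 48.4% of all genes. Leaving out 1 library in turn gave 0 to 2 higher and 0 to 1 lower. In labelled-knockout against aged controls, 1 member (Acss2) passed as lower under median-ratio rescaling, quantile normalization, immunoglobulin genes left out, array weights, and median-ratio rescaling without labelled-knockout replicate 2. Array weights called 12 higher, where 39.2% of all genes were called higher and 13.7% lower. Leaving out 1 library gave 0 to 1 in each direction. In labelled-knockout against young controls, array weights called 5 higher, against 5.21% of all genes.

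The median of the members with age moved from −0.01 to −0.17 at a minimum of 5 FPKM, where fewer genes are tested. It turned to 0.18 under median-ratio rescaling, with immunoglobulin genes left out, and under median-ratio rescaling without labelled-knockout replicate 2, and it ran from −0.14 to 0.045 when 1 library was left out. In labelled-knockout against aged controls the median of the members ran from 0.07 to 0.44 over the alternatives. Thbs1 passed as lower in aged than in young controls with array weights (−0.998), with only the 2 groups compared (−0.83) and without labelled-knockout replicate 2 (−0.83, adjusted p = 0.0224), and leaving out a library gave −0.94 to −0.76. Its difference from aged controls in labelled-knockout libraries turned to 0.0939 without their replicate 1 (−0.33 to 0.0939 over the libraries left out), and with array weights it was −1.05 against young controls. The causes were not tested.

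In aged against young controls, Acss2, Srebf2, Insig1, Acly, Mvk and Pmvk kept their direction in every alternative that tested them, as did Acss2, Mvk, Pmvk, Ebp, Srebf1 and Fdft1 in labelled-knockout against aged controls. Several alternatives leave a fold change as it is and could not turn it. They are no intensity trend, only the 2 groups, the replicate block, and leaving out a library of the group not compared. These genes were picked by small p-values or, for Srebf2, by lack of overlap. Correlations between libraries of the same replicate number, after group means were taken out, ran from −0.29 to 0.30, and 1 of 9 exceeded 0.1. Between libraries of different numbers they ran from −0.41 to 0.37. They thus showed no pairing by number, but with 3 libraries a group they cannot settle whether a day or litter was shared. With the number as a replicate block 0 members passed and the medians were −0.01, 0.28 and 0.09, and with age Nceh1 (adjusted p = 0.0697) and Abcg1 (adjusted p = 0.0935) no longer passed. Neither passed with age at a pseudocount of 0.1 or without a filter.

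Srebf2 in labelled-knockout against aged controls ran from −0.81 to 0.10 when 1 library was left out, the latter without labelled-knockout replicate 2. The settings for Srebf2, Abcg1 and Nceh1 were added after the data were seen.

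Depth limits the lowest genes: Fdps rested on an estimated 7 to 50 reads a library. The median SE of a member's log2 difference was 0.31, and the 95% interval lay within 1 log2 unit of 0 for 16, 11 and 12 of 26 members in the 3 comparisons.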

Other observations

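The balance of the 2 SREBP genes differed between the control groups. The ratio of Srebf2 to Srebf1 FPKM was 1.44, 1.49 and 1.31 in young controls, 3.05, 2.32 and 2.81 in aged controls, and 1.78, 0.730 and 1.68 in labelled-knockout libraries. Aged controls lay above all other libraries. The ratio of Fasn to Acaca was 2.23, 2.52 and 0.917 in young controls, 5.12, 2.63 and 4.15 in aged controls, and 4.86, 3.75 and 4.65 in labelled-knockout libraries, with all 6 libraries of aged mice above the young ones. The ratio of Scd2 to Scd1 was 1.49, 0.977 and 0.750 in young controls, 1.09, 1.002 and 0.976 in aged controls, and 1.34, 0.375 and 1.58 in labelled-knockout libraries, which spanned both other groups. The ratios were chosen after the values were seen and were not tested.

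Dgat1, which makes triglyceride from diacylglycerol, stood at 18.65, 17.87 and 14.01 FPKM in young controls, 79.82, 100.29 and 16.74 in aged controls and 27.03, 7.90 and 18.35 in labelled-knockout libraries. It did not pass (adjusted p = 0.196 with age and 0.198 in labelled-knockout against aged controls). Its values in aged controls followed the same order of libraries as Acss2 and Lcp1, whose share over all genes was not counted.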
